A study of Mus musculus with 16 samples.

Results

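5 genes that mark or act in dendritic cells, Flt3, Itgax, Cd207, Cd209e and Cd83, were followed through 16 mouse tumours. They were taken by name from the mouse PanCancer Immune panel of the NanoString nCounter system, which counts colour-coded probes bound to single RNA molecules. All 5 were found among the 770 genes of the panel, and all 5 were among the 712 genes whose mean level over the tumours reached 24.0, the level of the negative-control probes plus 2 SD. The cell lines implanted were MC38, derived from a colorectal tumour of the mouse, and E0771, derived from a mammary tumour, and each tumour began as 500000 cells placed with matrigel at the right shoulder. Every mouse had been given immunotherapy against PD-1 and CTLA-4, both inhibitory receptors of T cells, so no untreated tumour was compared, and the tumours were removed after the imaging of day 5. Hypoxia status, hypoxic or normoxic, is given by the labels for every tumour. There were 4 hypoxic MC38 tumours (mice 12, 14, 17 and 25), 4 normoxic MC38 tumours (mice 4, 7, 10 and 21), 3 hypoxic E0771 tumours (mice 12, 22 and 55) and 5 normoxic E0771 tumours (mice 4, 17, 38, 65 and 71). Within a line each tumour has its own mouse number. Strain, sex and age of the mice, and the uptake values behind the hypoxia classes, were not used here. The comparison between hypoxic and normoxic tumours addresses how the immune content of a treated tumour goes with its oxygen state.

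Dendritic cells take up antigen in tissues and tumours, carry it to lymph nodes and present it to T cells. They arise from bone marrow precursors that depend on the receptor Flt3, and their subsets differ in surface receptors such as integrins and C-type lectins, which bind sugars on microbes and on other cells. On activation they carry more costimulatory molecules and Cd83. The 5 genes stand for these steps: Flt3 is the receptor tyrosine kinase for Flt3 ligand, Itgax encodes the integrin CD11c, Cd207 encodes langerin, Cd209e encodes a mouse relative of the human dendritic cell lectin DC-SIGN, and Cd83 is a surface protein of mature dendritic cells. None of them is exclusive to dendritic cells. Itgax is also made by macrophages and NK cells, and Cd83 by activated lymphocytes.

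The stretches of genome just before the starts of Flt3, Cd207, Itgax and Cd209e are shown because the comparison is about hypoxia, and their letters allow a search for the core of the sites bound by hypoxia-inducible factors. Cd83 was not searched. The sequences come from RefSeq (GRCm38.p6), run 5′ to 3′ on the gene's strand and end at the base before the gene's annotated start. Capitals mark matches to any of 5 motifs, searched on both strands. 
Flt3: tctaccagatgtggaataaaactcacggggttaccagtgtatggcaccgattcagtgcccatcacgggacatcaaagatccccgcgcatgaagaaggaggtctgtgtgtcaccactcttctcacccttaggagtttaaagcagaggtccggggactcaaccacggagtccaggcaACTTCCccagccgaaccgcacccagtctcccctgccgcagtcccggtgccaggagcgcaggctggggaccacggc
Cd207: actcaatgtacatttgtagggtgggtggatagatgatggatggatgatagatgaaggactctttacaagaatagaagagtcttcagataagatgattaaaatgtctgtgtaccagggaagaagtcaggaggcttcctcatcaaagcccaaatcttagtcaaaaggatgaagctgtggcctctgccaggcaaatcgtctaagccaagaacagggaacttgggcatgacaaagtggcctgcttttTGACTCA
Itgax: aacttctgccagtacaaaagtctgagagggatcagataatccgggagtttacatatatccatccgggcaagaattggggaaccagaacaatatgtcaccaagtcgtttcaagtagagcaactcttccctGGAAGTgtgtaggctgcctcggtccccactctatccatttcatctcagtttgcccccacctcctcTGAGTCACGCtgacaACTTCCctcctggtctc
Cd209e: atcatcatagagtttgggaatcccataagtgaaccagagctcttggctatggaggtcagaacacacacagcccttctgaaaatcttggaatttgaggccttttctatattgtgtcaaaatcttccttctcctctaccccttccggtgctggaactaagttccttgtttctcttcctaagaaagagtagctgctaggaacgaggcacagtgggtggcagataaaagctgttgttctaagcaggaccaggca
These windows lie at chr5:147400490-147400739 on the minus strand (Flt3), chr6:83677858-83678107 on the minus strand (Cd207), chr7:128129300-128129525 on the plus strand (Itgax) and chr8:3854287-3854536 on the minus strand (Cd209e). The genes themselves span chr5:147330741-147400489, chr6:83671207-83677857, chr7:128129526-128150657 and chr8:3847973-3854286, in the same order, and Cd83 spans chr13:43785112-43803133.

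ACGTG and GCGTG, forms of the core bound by hypoxia-inducible factors, were searched together with TGANTCA (bound by AP-1), GGAAGT (a core of sites of PU.1 and other ETS factors) and a pattern of GAAA, any 2 bases and GAAA (of the kind bound by interferon regulatory factors). ACGTG was in none of the 4 windows. GCGTG matched in the Itgax window only, on its reverse strand, with its first base at position -27 counted back from the gene's annotated start. That match shares bases with a TGANTCA match at position -32, and GGAAGT matched in the same window at position -97 and, reversed, at position -17. The Flt3 window held GGAAGT, reversed, at position -75, the Cd207 window held TGANTCA at position -7, and the Cd209e window held no match. Of the 32851 windows of 250 bases in the RefSeq table, 16.6% held ACGTG, 28.2% GCGTG, 6.75% TGANTCA, 19.7% GGAAGT and 2.98% the GAAA pattern. In windows cut to 226 bases, the length of the Itgax window, the shares were 14.8%, 25.6%, 6.26%, 17.1% and 2.69%. A match describes the letters only.

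The deposited values are a signal scaled so that the 20 housekeeping genes have a geometric mean of 780 in every tumour, so each level is relative to those genes. Dividing out the scaling gave 180274 to 890239 estimated counts per tumour (median 531770). 5 tumours lay under 350000, namely hypoxic E0771 tumours 12 and 22, hypoxic MC38 tumours 14 and 25 and normoxic E0771 tumour 65, so 4 of the 5 were hypoxic. The background limit of a tumour, the mean plus 2 SD of its scaled negative-control probes, was 43.0 in hypoxic E0771 tumour 12, 52.8 in hypoxic E0771 tumour 22 and 31.8 in normoxic E0771 tumour 65, and between 6.25 and 16.9 in the MC38 tumours. Cd83 was above its tumour's limit in every tumour and Itgax was under it in 1 of 16. Flt3 and Cd209e were under it in 5 tumours each and Cd207 in 8, which makes their values in the hypoxic E0771 tumours the least certain. Both lines are carcinoma lines. The epithelial adhesion gene Epcam averaged 20.4 ± 18.3 in hypoxic and 73.9 ± 40.9 in normoxic MC38 tumours (SD, n = 4 each). In E0771 it averaged 34.7 ± 52.2 (n = 3) in hypoxic and 112 ± 215 (n = 5) in normoxic tumours. Its lowest hypoxic MC38 value, 3.73, lay under all MC38 background limits, and its normoxic E0771 values ran from 9.58 to 497. These values therefore do not check the identity of the lines.

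In MC38 tumours, hypoxic status went with lower levels of 4 of the 5 dendritic cell genes: Flt3, Cd207, Cd209e and Cd83 fell, and Itgax did not pass the test. Flt3 fell 7.46-fold and Cd209e 17.4-fold on the log2(value + 1) scale, which understates changes of low genes. The same direction was common on the panel: 342 of the 712 tested genes were lower in hypoxic MC38 tumours, or 48.0%, while 4 were higher, and the median difference of all tested genes was -1.27. In whole tumours, fewer of the cells that express a gene, dendritic or other, and less of its RNA per cell cannot be told apart. Adjusted p-values here are Benjamini-Hochberg values of limma over all 712 genes.

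Flt3, the growth factor receptor, had levels of 11.4, 11.6, 32.2 and 8.69 in the hypoxic MC38 tumours 12, 14, 17 and 25, against 143, 215, 32.3 and 150 in the normoxic MC38 tumours 4, 7, 10 and 21. The groups did not overlap, but hypoxic tumour 17 and normoxic tumour 10 were almost equal. The group averages were 15.98 ± 10.9 in the hypoxic group and 135 ± 75.9 in the normoxic group (SD, n = 4 each). The difference was -2.90 ± 0.61 (log2, SE; 95% interval -4.19 to -1.61; limma adjusted p = 0.00732), with 4 of 4 hypoxic tumours below the normoxic mean. 2 of the 4 hypoxic values lay under their background limit.

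Itgax, the integrin CD11c, had levels of 21.2, 38.0, 44.7 and 19.9 in hypoxic MC38 tumours 12, 14, 17 and 25, against 339, 52.0, 43.1 and 53.4 in normoxic MC38 tumours 4, 7, 10 and 21. Normoxic tumour 4 stood far above the other normoxic tumours, and hypoxic tumour 17 was above normoxic tumour 10, so the groups overlapped. The averages were 31.0 ± 12.3 and 122 ± 145 (SD, n = 4 each), and the difference was -1.43 ± 0.66 (log2, SE; 95% interval -2.82 to -0.03; limma adjusted p = 0.0803). Without normoxic tumour 10 the difference passed the threshold.

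Cd207, langerin, had levels of 12.3, 9.92, 13.8 and 2.48 in hypoxic MC38 tumours 12, 14, 17 and 25, against 78.2, 145, 12.9 and 102 in normoxic MC38 tumours 4, 7, 10 and 21. Of the normoxic tumours, number 10 again lay at the hypoxic level, and 2 of the 4 hypoxic values were under the background limit. Cd207 averaged 9.62 ± 5.02 in the hypoxic group and 84.3 ± 55.0 in the normoxic group (SD, n = 4 each), and fell by 2.78 ± 0.81 on the log2 scale (SE; limma adjusted p = 0.0131). All 4 hypoxic tumours were below the normoxic mean. The call was lost when hypoxic tumour 25, which held the lowest value, was left out.

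Cd209e, the other lectin, had the widest range of the 5 genes. Its levels were 16.3, 16.5, 55.2 and 4.97 in hypoxic MC38 tumours 12, 14, 17 and 25, against 1973, 398, 71.8 and 163 in normoxic MC38 tumours 4, 7, 10 and 21. The groups did not overlap, although the highest hypoxic tumour, 17, and the lowest normoxic tumour, 10, were close. The value of hypoxic tumour 25 lay under its background limit of 13.1, and that of hypoxic tumour 14 was near its limit of 13.5. The averages were 23.3 ± 22.0 and 651 ± 892 (SD, n = 4 each), and the difference of -4.12 ± 0.98 (log2, SE; limma adjusted p = 0.00800) was the third lowest of all 712 genes tested. Of the 5 genes, Flt3 and Cd209e had groups that did not overlap, with the hypoxic group lower, as had 24.3% of all genes tested. Flt3 and Cd209e passed the test in each of the 16 fits that left out 1 tumour, with differences of -3.48 to -2.58 and of -4.82 to -3.23.

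Cd83, the maturation marker, had levels of 73.5, 112, 114 and 57.1 in hypoxic MC38 tumours 12, 14, 17 and 25, against 761, 343, 85.5 and 255 in normoxic MC38 tumours 4, 7, 10 and 21. 3 of the normoxic tumours lay above all hypoxic ones, and normoxic tumour 10 lay among them. Cd83 averaged 89.4 ± 28.6 in the hypoxic group and 361 ± 287 in the normoxic group (SD, n = 4 each) and fell by 1.67 ± 0.58 on the log2 scale (SE; limma adjusted p = 0.0270), with 4 of 4 hypoxic tumours below the normoxic mean. The call was lost without hypoxic tumour 12, hypoxic tumour 25, normoxic tumour 4 or normoxic tumour 7. When all 5 tumours under 350000 estimated counts were left out, which leaves 2 hypoxic MC38 tumours, no MC38 call of these genes was kept.

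**Figure D1:**
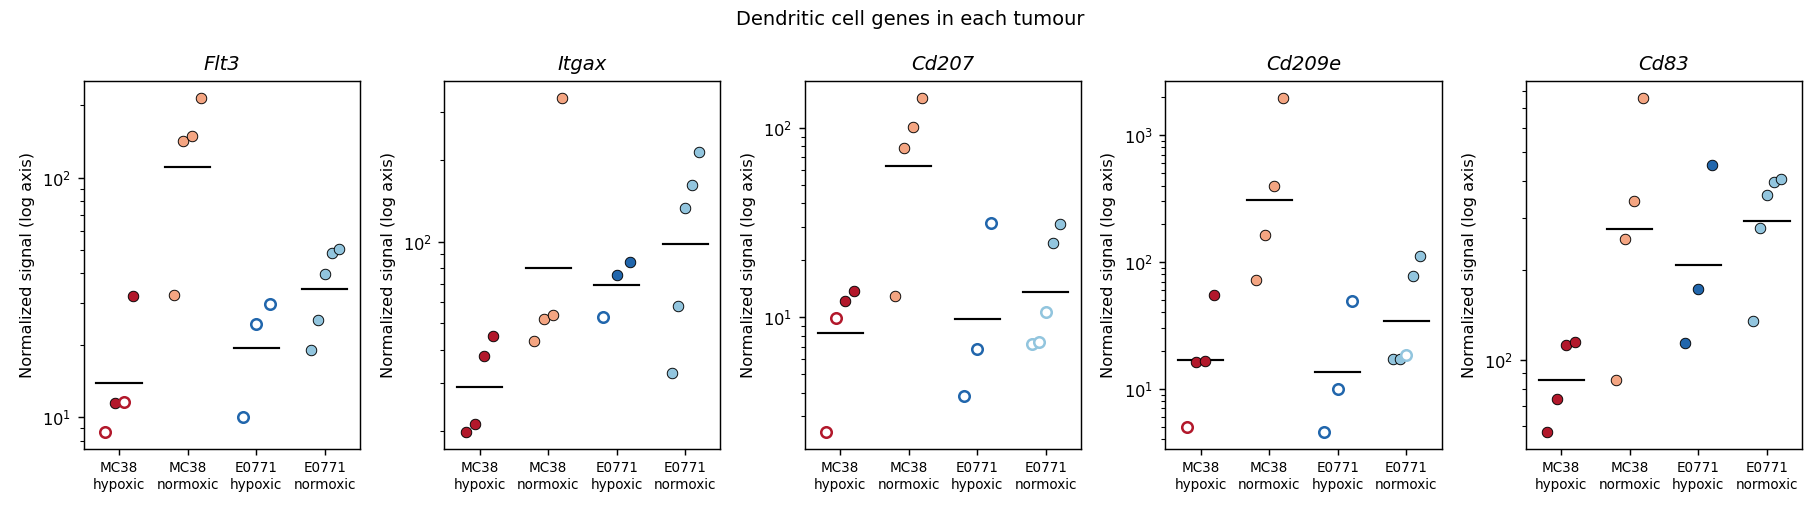
Level of each dendritic cell gene (deposited signal, log axis) in every tumour, by group; points are tumours, open points lie under the tumour's background limit, and bars are the back-transformed mean of log2(value + 1). In MC38, normoxic tumour 10 lies at or near the hypoxic tumours for all 5 genes, while Cd209e reaches 1973 in normoxic tumour 4.

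In MC38 the size of the difference went with the level of a gene across the panel. The tested genes were put into 4 bins of 178 by mean level. In the lowest bin (means of 24.1 to 78.1, among them Flt3 and Cd207), 80.9% were lower in hypoxic MC38 tumours, with a median difference of -2.41. In the next bin, which holds Itgax and Cd209e, 53.4% were lower and the median was -1.42. In the third, which holds Cd83, 29.8% were lower with a median of -0.83. Flt3 (-2.90) and Cd207 (-2.78) were thus near the median of their bin, while Cd209e (-4.12) was well below that of its own. The bins rest on means over all 16 tumours, and the Cd209e mean of 188 includes 1973 in normoxic MC38 tumour 4. Cd209e averaged 23.3 in hypoxic MC38, 21.3 in hypoxic E0771 and 48.2 in normoxic E0771 tumours. Its bin therefore depends on the high normoxic MC38 values, and its place against genes of like level is uncertain. In E0771 the medians of the 4 bins, from the lowest level up, were -0.34, -0.47, -0.33 and -0.27. The part of level in the difference was not tested.

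Many markers of other cell types were lower in hypoxic MC38 tumours too, against 48.0% of all tested genes. Of the 6 measured pan-leukocyte genes, 4 were lower (median -1.77), and their summed level was 776 to 3423 in hypoxic and 3171 to 14913 in normoxic MC38 tumours. Ptprc, which encodes the leukocyte protein CD45, had a difference of -1.78 ± 0.75 (limma adjusted p = 0.0576). Of the 8 macrophage and monocyte genes 6 were lower (median -1.82), with sums of 1638 to 6810 in hypoxic and 6632 to 70004 in normoxic tumours, and of the 7 B cell genes 4 could be tested and all 4 were lower (median -2.94; sums 34.8 to 104 and 99.1 to 785). 3 of 6 T cell genes, 2 of 4 NK cell genes, 3 of 4 neutrophil genes, 3 of 5 fibroblast genes, 1 of 4 endothelial genes and 1 of 2 tested epithelial genes were lower, so the T cell and NK cell counts were near the share of the panel and the endothelial count was under it. No marker was at the floor of 1 in any tumour. The part of these cell types, and of the low counts of some hypoxic tumours, in the dendritic cell differences was not tested.

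The differences depended on the scaling. With each tumour centred on its median gene, Flt3 (-1.78, limma adjusted p = 0.0277) and Cd209e (-3.002, adjusted p = 0.0208) were lower in hypoxic MC38 tumours, while Cd207 (-1.66, adjusted p = 0.0616), Cd83 (-0.55, adjusted p = 0.260) and Itgax (-0.31) did not pass. 16.2% of all genes were lower under this centring. With each tumour centred on the mean of 6 leukocyte genes (Ptprc, Cd53, Cd48, Cd37, Itgb2 and Lcp1), which moved the median difference of all genes to 0.58, only Cd209e passed among the 5 genes, and 1.26% of all genes tested were lower. The Cd209e difference was -2.27 ± 0.74 (limma adjusted p = 0.0493). Its log2 level relative to the leukocyte genes was -3.92 to -2.72 in hypoxic and -2.24 to 0.17 in normoxic MC38 tumours. The other differences were then -1.05 for Flt3 (adjusted p = 0.209), -0.93 for Cd207 (adjusted p = 0.349), 0.18 for Cd83 (adjusted p = 0.738) and 0.42 for Itgax (adjusted p = 0.500), so that Cd83 and Itgax changed sign. With the positive-control probes as the scale, Flt3 (-2.76), Cd207 (-2.63) and Cd209e (-3.99) passed, Cd83 (-1.54, adjusted p = 0.112) and Itgax (-1.30) did not, and 29.9% of all genes were lower.

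**Figure D2:**
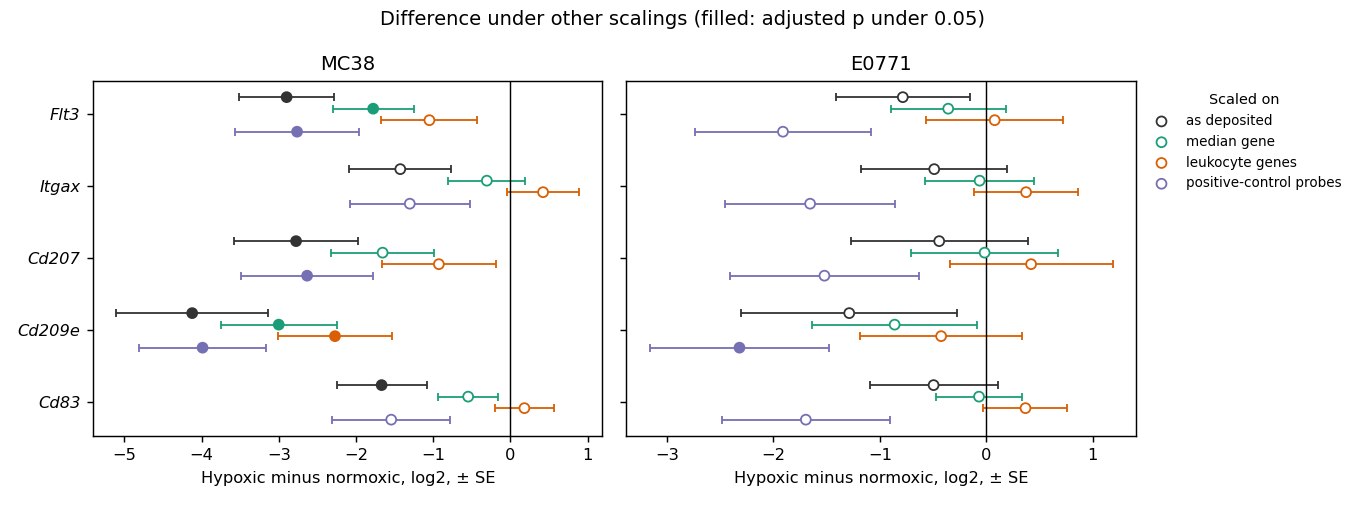
Hypoxic minus normoxic difference (log2) of each dendritic cell gene in MC38 and E0771 under the deposited scaling and the 3 other scalings; filled points have an adjusted p under 0.05. In MC38, Cd209e is filled under all 4, and Itgax and Cd83 cross 0 when centred on leukocyte genes.

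In E0771 tumours, none of the 5 dendritic cell genes passed the test between hypoxic and normoxic tumours, although each of the 5 fitted differences was below 0, as were 71.3% of those of all tested genes. No gene of the panel passed in limma (0%), nor with limma's voom weights, and 45 of 712 genes had an unadjusted p under 0.05, none of them among the 5. The median difference of all genes was -0.36.

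Flt3 had levels of 29.6, 24.6 and 10.0 in hypoxic E0771 tumours 12, 22 and 55, against 48.6, 19.1, 50.3, 39.8 and 25.6 in normoxic E0771 tumours 4, 17, 38, 65 and 71. The groups overlapped, and all 3 hypoxic values were under their background limit. The averages were 21.4 ± 10.2 (n = 3) in hypoxic and 36.7 ± 13.9 (n = 5) in normoxic tumours, and the difference was -0.78 ± 0.63 (log2, SE; 95% interval -2.12 to 0.55; limma adjusted p = 0.649).

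Itgax had levels of 75.3, 52.8 and 84.0 in hypoxic E0771 tumours 12, 22 and 55, against 32.8, 58.1, 134, 162 and 214 in normoxic E0771 tumours 4, 17, 38, 65 and 71. The 5 normoxic tumours spread on both sides of the hypoxic ones. The averages were 70.7 ± 16.1 (n = 3) and 120.1 ± 74.5 (n = 5), and the difference was -0.49 ± 0.68 (95% interval -1.93 to 0.95; limma adjusted p = 0.828).

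Cd207 had levels of 6.84, 31.7 and 3.86 in hypoxic E0771 tumours 12, 22 and 55, against 24.6, 7.27, 31.1, 10.6 and 7.45 in normoxic E0771 tumours 4, 17, 38, 65 and 71. Hypoxic tumour 22 held the highest value of the 8, in the tumour with the fewest counts and the highest background limit. 3 of 3 hypoxic and 3 of 5 normoxic values were under the limit, and the difference was -0.44 ± 0.83 (95% interval -2.19 to 1.31; limma adjusted p = 0.885).

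Cd209e had levels of 4.56, 49.3 and 10.0 in hypoxic E0771 tumours 12, 22 and 55, against 110, 17.3, 77.7, 18.6 and 17.0 in normoxic E0771 tumours 4, 17, 38, 65 and 71. Normoxic tumours 4 and 38 were the highest, for Cd209e as for Flt3, and hypoxic tumour 22 lay between them and the other normoxic tumours. However, 3 of 3 hypoxic values, that of tumour 22 included, and 1 of 5 normoxic values were under the background limit. The difference was -1.29 ± 1.02 (95% interval -3.43 to 0.85; limma adjusted p = 0.649).

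Cd83 had levels of 114, 451 and 174 in hypoxic E0771 tumours 12, 22 and 55, against 277, 135, 406, 358 and 395 in normoxic E0771 tumours 4, 17, 38, 65 and 71. The highest of the 8 values was again in hypoxic tumour 22, and the groups overlapped. The averages were 246 ± 180 (n = 3) and 314 ± 112 (n = 5), with a difference of -0.50 ± 0.60 (95% interval -1.76 to 0.77; limma adjusted p = 0.779). None of the 5 genes had groups that did not overlap, against 0.562% of all genes with the hypoxic group lower. The 95% intervals of all 5 differences include 0 as well as falls of more than 1 log2 unit.

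The other scalings bore on E0771 as well. Centred on leukocyte genes, the differences were 0.08 for Flt3, 0.37 for Itgax, 0.42 for Cd207, -0.42 for Cd209e and 0.37 for Cd83, and none passed. Scaled on the positive-control probes, Cd209e was lower (-2.32, limma adjusted p = 0.0482), as were 17.8% of all genes, and the other 4 differences of -1.91 to -1.52 did not pass. Leukocyte genes showed no call in E0771 (median -1.01; sums 1428 to 4245 in hypoxic and 2698 to 9483 in normoxic tumours), nor did macrophage and monocyte genes (median -0.85; sums 3706 to 7892 and 4980 to 16285).

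The hypoxia difference of E0771 minus that of MC38 was 2.12 ± 0.88 for Flt3 (limma adjusted p = 0.225), 0.94 ± 0.95 for Itgax (adjusted p = 0.593), 2.33 ± 1.16 for Cd207 (adjusted p = 0.291), 2.84 ± 1.41 for Cd209e (adjusted p = 0.291) and 1.17 ± 0.84 for Cd83 (adjusted p = 0.442). None of the 5 passed, and neither did any gene of the panel in limma (0%) or with voom weights; 133 genes, of the 5 only Flt3, had an unadjusted p under 0.05. A difference between the lines in how these genes go with hypoxia was therefore not shown. Without normoxic MC38 tumour 10, Flt3 and Cd207 passed. The 0% above is of the full fit, and the share of all genes that passed without that tumour is not given here.

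Averaged over both lines with equal weight, 4 of the 5 genes were lower in hypoxic tumours, as were 41.4% of all genes (median -0.89). The differences were -1.84 ± 0.44 for Flt3 (limma adjusted p = 0.0184), -1.61 ± 0.58 for Cd207 (adjusted p = 0.0364), -2.71 ± 0.71 for Cd209e (adjusted p = 0.0184) and -1.08 ± 0.42 for Cd83 (adjusted p = 0.0470). Itgax, at -0.96 ± 0.48 (adjusted p = 0.103), did not pass; it passed on the positive-control scale (-1.48, limma adjusted p = 0.0179) and without normoxic E0771 tumour 4. Without hypoxic E0771 tumour 12, none of the 5 passed, and Flt3 and Cd209e then had adjusted p = 0.0662 in limma. That was the only tumour whose removal ended the calls of Flt3 and Cd209e. The Cd83 call held in only 4 of the 16 fits that left out 1 tumour, those without normoxic MC38 tumour 10, hypoxic MC38 tumour 17, hypoxic E0771 tumour 22 or normoxic E0771 tumour 17. The Cd207 call was lost without hypoxic MC38 tumour 14 or 25, normoxic MC38 tumour 4, 7 or 21, hypoxic E0771 tumour 12 or 55, or normoxic E0771 tumour 4 or 38.

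**Figure D3:**
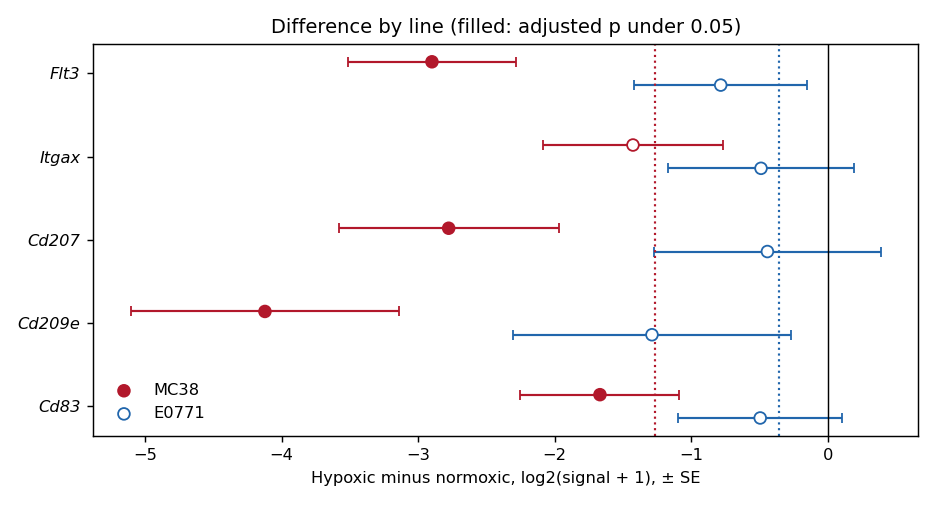
Hypoxic minus normoxic difference (log2) of each dendritic cell gene in MC38 and in E0771, with bars of ± SE. Filled points have an adjusted p under 0.05, and dotted lines mark the median of all 712 tested genes in each line. All 5 MC38 differences lie below the MC38 median of -1.27. In E0771 the ± SE bars of Flt3 and Cd209e do not reach 0, whereas the 95% intervals of all 5, not drawn here, include 0.

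Between the lines, among normoxic tumours, Cd209e was lower in E0771. Its levels averaged 48.2 ± 43.5 (n = 5) in normoxic E0771 tumours and 651 ± 892 (n = 4) in normoxic MC38 tumours, a difference of -3.13 ± 0.93 (log2, E0771 minus MC38; limma adjusted p = 0.0317), and 14.3% of all genes were lower in E0771 (median -0.50). 5 of 5 normoxic E0771 tumours were below the MC38 mean. Flt3 (-1.66 ± 0.58, adjusted p = 0.0587) and Cd207 (-2.12 ± 0.76, adjusted p = 0.0662) did not pass, with averages of 36.7 ± 13.9 in E0771 and 135 ± 75.9 in MC38 for Flt3, and of 16.2 ± 10.96 in E0771 and 84.3 ± 55.0 in MC38 for Cd207. Neither did Itgax (0.29 ± 0.63, adjusted p = 0.807) nor Cd83 (0.09 ± 0.55, adjusted p = 0.939). The Cd209e call rested on single tumours: it was lost without MC38 tumour 4 (-2.24, limma adjusted p = 0.109), 7 or 21, and without E0771 tumour 17, 65 or 71. Without normoxic MC38 tumour 10, 3 of the 5 genes passed, and the share of all genes that passed in that fit is not given here.

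Among hypoxic tumours, none of the 5 genes passed between the lines, whereas 7.87% of all genes did in either direction; none of the 5 had an unadjusted p under 0.05, and none passed with voom weights. Itgax averaged 70.7 ± 16.1 (n = 3) in hypoxic E0771 tumours and 31.0 ± 12.3 (n = 4) in hypoxic MC38 tumours. The ranges did not overlap, as for 13.8% of all genes in that direction, but the difference of 1.22 ± 0.71 did not pass (limma adjusted p = 0.390). Cd83 differed by 1.26 ± 0.63 (adjusted p = 0.290), Flt3 by 0.46 ± 0.66, Cd207 by 0.21 ± 0.87 and Cd209e by -0.30 ± 1.06. Line and any unrecorded batch cannot be told apart in these comparisons.

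Ordered by the mean of log2(value + 1), Flt3 and Cd207 were highest in normoxic MC38 (6.80 and 5.99), followed by normoxic E0771 (5.14 and 3.87), hypoxic E0771 (4.36 and 3.43) and hypoxic MC38 (3.905 and 3.22). Cd209e had the order normoxic MC38 (8.28), normoxic E0771 (5.15), hypoxic MC38 (4.16) and hypoxic E0771 (3.86). Itgax had the order normoxic E0771 (6.63), normoxic MC38 (6.34), hypoxic E0771 (6.14) and hypoxic MC38 (4.91), and Cd83 the order normoxic E0771 (8.20), normoxic MC38 (8.11), hypoxic E0771 (7.70) and hypoxic MC38 (6.44). For these 2 genes normoxic MC38 tumour 4 raised its group: the plain averages put normoxic MC38 first, whereas the medians were 134 in normoxic E0771 and 52.7 in normoxic MC38 tumours for Itgax, and 358 and 299 for Cd83. Of the neighbouring groups in these orders that were tested, only normoxic E0771 and normoxic MC38, for Cd209e, differed past the adjusted threshold.

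Most further dendritic cell genes of the panel were lower in hypoxic MC38 tumours as well. In 4 lists of such genes 39 were measured and 38 tested, of which 27 were lower, none was higher and 11 did not pass. By comparison, 48.0% of all tested genes were lower, and the median difference was -1.97 for the 4 lists against -1.27 for all genes. Counts of each list below are to be read against that share of 48.0%. Across the panel the share fell with level, from 80.9% in the lowest bin to 28.1% in the highest. The lists were not matched for level, and the part of level in their counts was not tested. Of 8 development and survival genes, 5 fell, among them Irf4, a transcription factor of conventional dendritic cells (-2.72), and Csf2rb, the shared receptor chain for GM-CSF, IL-3 and IL-5 (-2.63). Relb, an NF-kB subunit, had a difference of -0.12 and Csf1, the macrophage growth factor, one of -0.29, and neither passed.

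Of 7 subset surface genes, 6 fell. Xcr1, the chemokine receptor of cross-presenting dendritic cells, averaged 9.06 ± 6.84 in hypoxic and 68.9 ± 44.3 in normoxic MC38 tumours (SD, n = 4 each), and Itgae, which encodes the integrin CD103, averaged 20.5 ± 11.7 and 172 ± 104. Thbd (-1.71) was also lower, and Cd1d1, a lipid-presenting molecule, did not pass (-1.11). Of 8 lectin and uptake genes, 4 fell, a share near the 48.0% of the panel, with Mrc1, the mannose receptor (-3.15), and Clec7a, the beta-glucan receptor dectin-1 (-2.42), at the low end. The scavenger receptor Marco (-0.16) and Clec5a (-0.89) did not pass.

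Of 15 activation and T cell stimulation genes, 12 fell. Pdcd1lg2, the gene of PD-L2, a ligand of PD-1, averaged 26.3 ± 24.1 in hypoxic and 482 ± 602 in normoxic MC38 tumours, a difference of -3.68. Ccl17, a chemokine that attracts T cells, averaged 11.1 ± 6.78 and 157 ± 115, a difference of -3.44. Il15 (-0.12) and Cd274, which encodes PD-L1 (-0.80), did not pass. The macrophage, leukocyte and B cell sums given above also had lower medians in hypoxic than in normoxic MC38 tumours. The macrophage list shares Mrc1, Msr1 and Itgam with these lists, so the lists are not independent, and the part of macrophages was not tested.

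In E0771 none of the 38 genes passed in limma, and 5 had an unadjusted p under 0.05. 30 of the 38 differences were below 0, or 78.9%, against 71.3% of all genes, and the median was -0.76 against -0.36. Ccl17 had the lowest difference (-2.49), with an average of 39.1 ± 19.6 (n = 3) in hypoxic and 305 ± 290 (n = 5) in normoxic E0771 tumours, followed by the scavenger receptor Cd36 (-1.94) and the chemokine Ccl19 (-1.75). Itgae was at -1.32, Irf4 at -1.18, Csf2 at -1.15, Clec4a2 at -1.13 and Clec7a at -1.05. At the other end were Relb (0.63), Csf1 (0.49), Icosl (0.34), Cd1d2 (0.27) and Tnfsf4 (0.19), with Marco (-0.06), Xcr1 (-0.34) and Clec5a (-0.80) the highest or next highest of their lists.

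**Figure D4:**
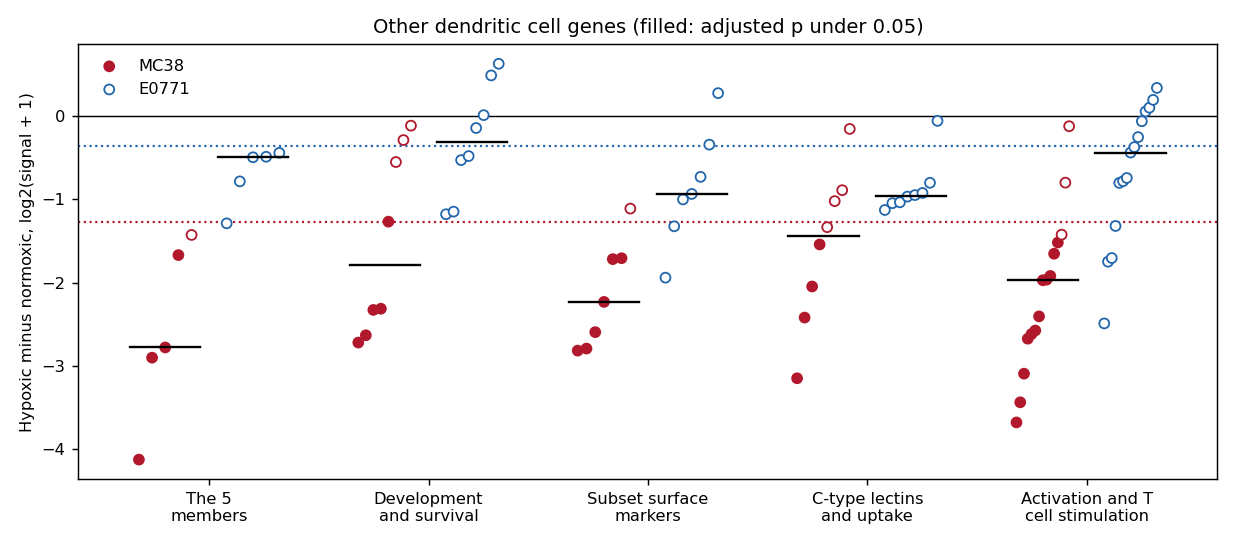
Hypoxic minus normoxic difference (log2) of the 5 members (first column) and of each tested gene in the 4 lists of other dendritic cell genes, in MC38 and E0771. Filled points have an adjusted p under 0.05, and dotted lines mark the median of all tested genes in each line. In MC38 4 of the 5 members and 27 of the 38 listed genes are filled, all below 0, and in E0771 no point is.

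The genes whose pattern was most like each member were sought over the 16 tumours by Pearson's r of log2(value + 1) after centring each tumour on its median gene. The tumours differ in line, hypoxia status and depth, and each r, also within a line, runs over hypoxic and normoxic tumours together. The r values therefore describe these tumours only. Cd209e was most like Il4 (r = 0.93), Mrc1 (0.91) and Cd163, the haemoglobin scavenger receptor of macrophages (0.90), with 0.98, 0.97 and 0.97 among the 8 MC38 tumours and 0.77, 0.87 and 0.71 among the 8 E0771 tumours. Itgax was most like Ncf4, a subunit of the phagocyte NADPH oxidase (0.93), Irf5 (0.88) and the macrophage gene Cd68 (0.88). Cd83 was most like the MHC class II regulator Ciita (0.84), Ctla4 (0.83) and Gpr183 (0.82), though with Ciita r was 0.92 in MC38 and 0.33 in E0771.

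Flt3 was most like H2-Q10 (0.92), Foxj1 (0.91) and Hamp (0.91), and Cd207 was most like Saa1 (0.96), Crp (0.94) and Cd59b (0.94). These 6 genes had low means over the tumours; those of Foxj1 and Hamp, at 25.2 and 24.1, were close to the filter of 24.0. Among the members, Flt3 and Cd207 (r = 0.90 in MC38 and 0.67 in E0771), Cd207 and Cd209e (0.73 and 0.84) and Flt3 and Cd209e (0.80 and 0.47) went together in both lines. Cd83 had r = 0.80 in MC38 and 0.67 in E0771 with Cd209e, 0.59 and 0.65 with Cd207, and 0.58 and 0.24 with Flt3, although over all 16 tumours these were 0.29, 0.20 and 0.21. Itgax turned sign between the lines: with Cd209e r was 0.58 in MC38 and -0.82 in E0771, and with Cd83 it was 0.68 and -0.58. With Cd207 r of Itgax was -0.05 and -0.75, and with Flt3 it was 0.07 and -0.18. With Ptprc, r in MC38 and in E0771 was 0.61 and 0.09 for Itgax, 0.39 and 0.27 for Cd83, 0.73 and 0.07 for Cd209e, 0.31 and -0.29 for Cd207, and 0.36 and -0.56 for Flt3. Flt3, Cd207 and Cd209e are also the members most often under the background limit, and the part of background in their likeness was not tested.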

How the data were processed

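RNA of 16 mouse tumours (MC38 hypoxic 4, MC38 normoxic 4, E0771 hypoxic 3, E0771 normoxic 5) had been measured on a NanoString panel of 784 probes, of which 770 are genes, 8 negative and 6 positive controls. The deposited values are a normalized signal on a linear scale, per the labels from whole tumours kept in RNAlater. For the authors' software and steps the sources used here give nothing. As the values show, there was 1 factor per tumour, set on 20 housekeeping genes, a floor at 1, unscaled control probes and no background subtraction. Dividing by each tumour's step gave estimated counts (all values within 0.1 step of whole), used to describe depth and for weights only.

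Groups came from the labels, which give line, mouse number and hypoxia status. That mouse numbers are separate animals is taken from the labels, and p-values measure the spread between these tumours. Genes with a mean of at least 24.0 (712 tested, 58 not) entered as log2(value + 1) in limma 3.58.1 (R 4.3.3; lmFit, eBayes with trend), with 4 group means over all tumours and no covariate. Benjamini-Hochberg adjustment ran over all 712 genes with a threshold of 0.05. The method recovered known differences in simulated data of independent, normally distributed values, with the same spread in every group and equally many rises and falls. The mostly one-way shift and the low counts of these tumours were not simulated. Lists were described by counts and medians, with no set test.

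The members and all lists were chosen with earlier results of these data known. Genes named are the 5 members, Ptprc, the 2 highest and 2 lowest of each other dendritic cell list in each line, and the 3 most like each member. Epcam is described as well and lies outside this rule. Probe names were matched to GRCm38.p6 symbols, 756 directly and 7 by synonym, with 7 unmatched; Cd209e matched apart from letter case. Promoter windows are RefSeq's, cut to the bases before the gene's start.

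Alternatives were 3 other scalings, no filter or a mean of 50, a pseudocount of 10, background subtraction, eBayes without trend or robust, fits of 1 line, leaving out each tumour or the 5 tumours under 350000 estimated counts, and voom weights, the last chosen after seeing the data.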

Additional observations from a re-analysis of the deposited data

Results flagged for a closer look

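Within the 15 combinations of member and group that hold at least 4 tumours, 1 tumour stood apart by Dixon's criterion: Itgax was 339 in normoxic MC38 tumour 4, while the other 3 normoxic MC38 tumours held 43.1 to 53.4. Its gap to the nearest of them was 0.897 of the group's range, above the critical value of 0.829 for 4 tumours. Chance alone marks about 1 in 20 such groups. The same tumour had the most estimated counts (890239) and the highest Cd209e (1973), Cd83 (761) and Ptprc (1702) of the MC38 tumours. The part of its depth and of its other leukocyte genes in the Itgax value was not tested.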

How the results depend on the processing

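Of the 5 members, 4 passed in MC38. That count was 2 with each tumour centred on its median gene, 1 when centred on leukocyte genes and 3 on the positive-control scale. No MC38 call of the members was kept without the 5 tumours of low counts. That last fit leaves 1 hypoxic E0771 tumour, assumed to vary like the others. In E0771 0 passed, and 1 on the positive-control scale. For the mean of both lines 4 passed, 5 on the positive-control scale, 2 centred on the median gene, with a filter of 50 or with voom weights, and 0 centred on leukocyte genes or without the 5 tumours. Between lines in normoxic tumours 1 passed, 3 with a pseudocount of 10, 2 with background subtracted or without trend, and 0 without the 5 tumours. Leaving out each tumour gave 2 to 5 members in MC38 (2 without hypoxic 25, 5 without normoxic 10) and 0 in E0771. It gave 0 to 4 for the mean, 0 to 2 for the difference between lines and 0 to 3 between normoxic groups. For most of these alternative fits the share of all genes is not given here, so the member counts cannot be set against the panel.

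Signs turned as follows, and the cause was not tested. Centred on leukocyte genes, they were 0.42 (Itgax) and 0.18 (Cd83) in MC38. In E0771 they were 0.079 (Flt3), 0.37 (Itgax), 0.42 (Cd207) and 0.37 (Cd83), and for the mean 0.40 (Itgax) and 0.27 (Cd83). For the difference between lines Itgax was then -0.048, and in hypoxic E0771 minus MC38 Flt3 was -0.35 and Cd207 -0.60. On the positive-control scale, the difference between lines was -0.35 (Itgax) and -0.15 (Cd83), normoxic E0771 minus MC38 was -0.016 (Cd83), and hypoxic E0771 minus MC38 was -0.90 (Flt3), -0.18 (Itgax), -1.08 (Cd207) and -0.17 (Cd83). That last comparison also turned for Flt3 (-0.81) and Cd207 (-0.83) with background subtracted, for Flt3 (-0.88) and Cd207 (-1.53) without the 5 tumours, and for Cd207 (-0.12) centred on the median gene. Leaving out 1 tumour turned Cd207 in E0771 (-1.24 to 0.13), Cd207 (-0.59 to 0.78) and Cd209e (-1.19 to 0.40) between hypoxic groups, and Cd83 (-0.47 to 0.58) and Itgax (-0.0081 to 0.97) between normoxic groups. Low counts limit Flt3, Cd207 and Cd209e most, in hypoxic E0771 tumours above all. Cd207 could not be tested with the filter of 50. The planned edgeR tests were not run, because the values could not be used as counts. No paired analysis was possible because the groups compared share at most 1 mouse number.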
